A study of Homo sapiens with 9 samples.

Results

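Among 9 libraries of U937 cells, 2 stood apart by low expression of genes that build the machinery for making and degrading proteins. They are the library labelled shDEK14 replicate 3 and the library labelled shDEK17 replicate 1, and they were set against the other 7 libraries. The pair was picked on measured values of these same arrays, for low levels of ribosome biogenesis, proteasome and glycolysis genes (markers PPAN and HSPA1B). A test of the pair against the rest would therefore be circular, and none is given. The values of each library, the size of each difference and the agreement of both arrays are given instead.

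U937 is a human myeloid cell line that grew out of a histiocytic lymphoma. All cells had received an H1 lentiviral vector with a GFP marker. The vector held a short hairpin RNA against DEK (groups shDEK14 and shDEK17) or no hairpin (group shEMPTY), with 3 libraries per group. Cells positive for GFP were sorted 48 h after transduction and grown for 4 further days before total RNA was hybridised to Illumina bead arrays. The labels do not say whether libraries of a group came from separate transductions, so the spread among libraries may be partly technical.

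DEK, the chromatin protein that the hairpins target, did not follow the labels. Its log2 intensity was 11.19, 8.36 and 11.42 in the libraries labelled shEMPTY replicates 1 to 3. The shDEK14 libraries had 11.12, 8.47 and 11.29 and the shDEK17 libraries 8.81, 10.96 and 8.91. The pair thus joined 1 library with high DEK (11.29, shDEK14 replicate 3) and 1 with low DEK (8.81, shDEK17 replicate 1). Labels are therefore used only as names of libraries.

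Values are log2 of the deposited intensity after scaling to a common array mean, without background subtraction, so that fold differences of dim genes are understated. A gene was kept if 3 or more arrays detected a probe of it with a detection p below 0.01, which left 8611. A gene is called below when both arrays of the pair lay under all 7 others, and above when both lay over all 7. The arrays detected 12729 to 14152 probes, with 13609 on shDEK14 replicate 3 and the fewest, 12729, on shDEK17 replicate 1. Both arrays of the pair correlated with each other across genes at r = 0.985, and shDEK14 replicate 3 correlated as closely with shDEK14 replicate 1 (r = 0.986). By this measure the whole profile did not single out the pair. Of markers of other cell types, 1 of 14 T and NK cell genes, 2 of 7 B cell genes and 0 of 8 epithelial genes on the array were detected on either array of the pair. Of 32 myeloid genes on the array, 24 were detected on at least 1 array of the pair and 30 on at least 1 of the others. The others are more arrays and so give more chances of detection, and these counts do not measure a loss in the pair. ANPEP and ITGAX were detected on no array. RNA of a whole culture cannot tell fewer cells of a kind from less RNA per cell.

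Ribosomes are assembled in the nucleolus, where RNA polymerase I makes the ribosomal RNA precursor. Small nucleolar ribonucleoproteins (snoRNPs) modify this RNA, and assembly factors fold it onto the ribosomal proteins. The proteasome degrades ubiquitin-tagged proteins in a barrel, the 20S core, fed by the 19S cap. In growing cells these pathways, glycolysis and mitochondrial biogenesis are often raised together, and MYC is known as one activator of many of their genes. Amino acid shortage instead raises translation of ATF4, a transcription factor that induces genes for amino acid synthesis and uptake.

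Over all genes, 659 of 8611 (7.65%) were called below and 620 (7.2%) above. With a mean difference of at least 1.5-fold in addition, 38 genes (0.441%) were below and 76 (0.883%) above. The median difference between the pair and the others was 0.0045 on the log2 scale, so the distribution as a whole was not shifted. Genes called below lay under the mean of the others by a median of 0.30 in shDEK14 replicate 3 and 0.33 in shDEK17 replicate 1. Those called above lay over it by a median of 0.36 in each. The 38 genes below by 1.5-fold were less even, with medians of -0.54 and -0.75, and 27 of them were lower in shDEK17 replicate 1. A call asks for both arrays to lie beyond the others, so closeness of these medians is partly built in. Over all 8611 genes, 2772 had both arrays under the mean of the others and 2963 had both over it. The median gap between both arrays was 0.155. Both arrays are set against the same 7 libraries, so their differences are not independent of each other. Of the 7 other libraries, only shEMPTY replicate 3 moved a count by more than 1.5 times when left out: 138 genes were then above by 1.5-fold. With 1 array of the pair alone fewer values had to be separated. Without shDEK14 replicate 3, 1659 genes were below and 1421 above (120 and 150 by 1.5-fold), and without shDEK17 replicate 1 there were 1259 and 1525 (176 above by 1.5-fold).

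Ribosome biogenesis genes, on which the pair was chosen, had 35 of 143 members called below (24.5%, against 7.65% of all genes) and 1 above. Their median difference was -0.18, with -0.15 in shDEK14 replicate 3 and -0.20 in shDEK17 replicate 1. As a mean deviation from the average of all 9 libraries, the list stood at -0.091 and -0.19 in these libraries. The next lowest library, shDEK14 replicate 2, stood at -0.055 and the highest, shDEK17 replicate 2, at 0.080. shDEK14 replicate 3 was thus nearer to the next library than to its partner, and the pair was uneven in size.

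**Figure D1:**
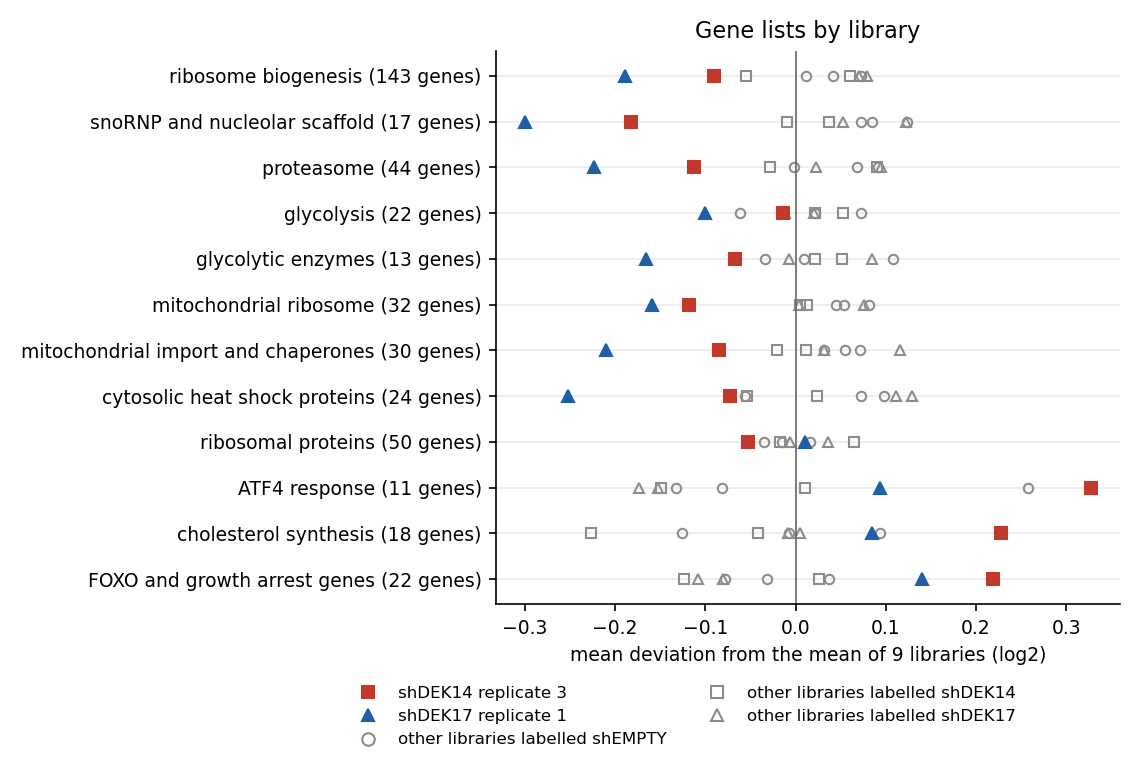
Mean deviation of the genes of 12 lists or subgroups from their average over 9 libraries (log2, horizontal axis), with 1 point per library. Filled symbols mark the pair and open symbols the other 7 libraries by label. In ribosome biogenesis both filled symbols (-0.091 and -0.19) lie left of all open ones, and in the FOXO list (0.22 and 0.14) right of them.

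The strongest share was in the snoRNP and nucleolar scaffold subgroup, with 9 of 17 genes below (52.9%) and a median difference of -0.27. NOP56, a core protein of the box C/D snoRNPs that guide RNA methylation, had a log2 intensity of 11.67 in shDEK14 replicate 3 and 11.41 in shDEK17 replicate 1. The other 7 libraries ran from 11.92 to 12.40 with a median of 12.28, so NOP56 was 1.63-fold lower in the pair (difference -0.70, SD over the 7 0.16). All 3 of its probes were called below. NCL (nucleolin), an abundant nucleolar protein, measured 11.46 and 11.11 against 11.49 to 12.06 (median 11.91), a difference of -0.57 that both its probes showed (-0.62 and -0.57). Its value in shDEK14 replicate 3 lay just under the lowest of the others.

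NOLC1, a snoRNP chaperone, was 1.52-fold lower (8.35 and 8.05 against 8.52 to 9.02). GAR1, a protein of the H/ACA snoRNPs that guide pseudouridylation, was 1.49-fold lower by its brightest probe (9.85 and 9.74 against 10.17 to 10.54). Its 3 other probes were lower by 0.27 to 0.42 without separating the groups. The other H/ACA proteins DKC1 (-0.36), NHP2 (-0.38) and NOP10 (-0.26) were also below all 7 others, as was NOP58, the partner of NOP56 (-0.40). These 4 were named after their values were seen. GAR1, DKC1, NHP2 and NOP10 are the core proteins of the H/ACA particle.

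Among factors of the large subunit, 15 of 51 genes were below (29.4%, against 7.65% of all genes) and 1 above, with a median difference of -0.23. NIP7, needed for late steps of pre-ribosomal RNA processing, measured 9.42 and 9.0 against 9.63 to 10.07 (median 9.90) and was 1.60-fold lower. NOP2, a methyltransferase of the large subunit RNA, measured 9.85 and 9.67 against a narrow range of 10.21 to 10.41 (difference -0.58, SD 0.09). Its other probes were lower by 0.50 and 0.13, with overlapping groups. MRTO4, which binds the stalk site of the nascent large subunit, measured 8.64 and 7.99 against 8.65 to 9.29, so that shDEK14 replicate 3 was separated by a small margin only. NOP16 (-0.59) was also below. URB1 was the exception in the list, with 7.51 and 7.55 against 6.94 to 7.50 (difference 0.31), and it was detected on 5 of the 7 other arrays.

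Of the factors of the small subunit, 7 of 49 were below (14.3%, against 7.65% of all genes), with a median of -0.16. EMG1, a methyltransferase of the small subunit RNA, measured 9.35 and 8.91 against 9.52 to 10.05 (1.55-fold lower). NAT10, which acetylates that RNA, measured 8.84 and 8.73 against 9.15 to 9.62 (1.5-fold lower), and BYSL was lower by 0.45. RRP36 had a difference of -0.46 but its groups overlapped. Of the RNA exosome, which trims the precursors, EXOSC4 (-0.54) and EXOSC5 (-0.51) were among 3 of 13 below (23.1%). The RNA polymerase I machinery had 1 of 13 below (7.69%, near the 7.65% of all genes). This was POLR1C, a subunit shared with RNA polymerase III (9.37 and 9.16 against 9.57 to 10.04). Its second probe was lower by 0.51 with overlapping groups. POLR1F (0.49) and TAF1D (0.34) had higher means in the pair, with overlapping groups.

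Outside the list, the nucleolar protein gene CCDC86 had the lowest difference among all genes. It measured 9.12 and 8.95 against 9.69 to 10.13 (median 10.03) and was 1.92-fold lower. GRWD1, a histone chaperone with a role in ribosome assembly, was 1.66-fold lower (8.24 and 8.18 against 8.68 to 9.16). In the plot of the lower genes, both filled symbols lie left of the open ones for each gene.

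**Figure D2:**
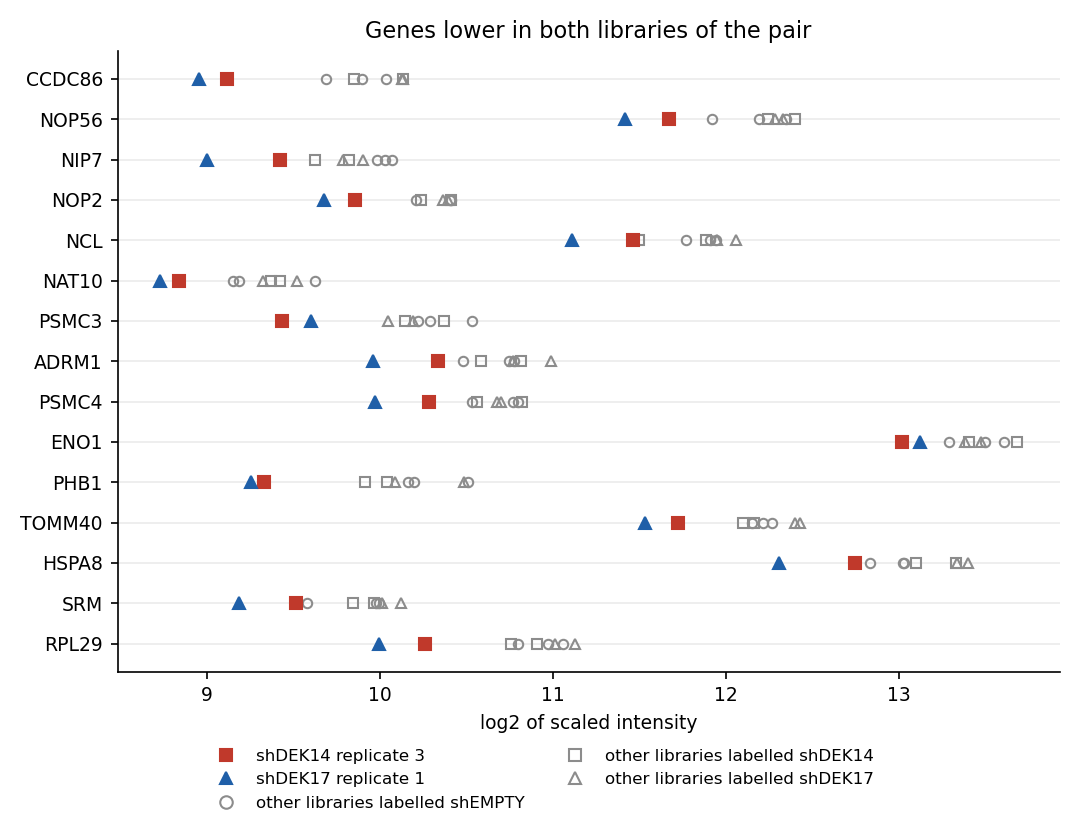
Log2 of scaled intensity (horizontal axis) of 15 genes called below, with 1 point per library: filled symbols for the pair, open symbols for the other 7 by label. For CCDC86 the pair lies at 9.12 and 8.95 and the nearest other library at 9.69, while for NCL 11.46 lies close to the lowest other value of 11.49.

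The marker PPAN, a factor of large subunit assembly, was lower on average (-0.39) but did not separate the groups. It measured 7.25 in shDEK14 replicate 3 and 7.10 in shDEK17 replicate 1, where it was not detected, against 7.25 to 7.93. The other marker, HSPA1B, an inducible HSP70, measured 8.93 and 8.63 against 8.87 to 11.0035. Its difference of -0.91 owed its size to the libraries labelled shDEK17 replicates 2 and 3 (10.70 and 11.0035), since the other 5 ran from 8.87 to 9.63. Neither marker gene thus defines the pair by itself.

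Ribosomal RNA genes had 3 probes, and none gave a lower mean signal in the pair. The brighter probe of RNA28SN5 (28S ribosomal RNA) measured 12.12 and 12.10 against 10.23 to 11.47 (median 10.85), 2.29-fold higher. Its second probe was higher by 0.45 with overlapping groups, and the probe of RNA18SN5 (18S) was higher by 0.16, also with overlap. Neither how far these signals follow the amount of ribosomal RNA nor their part in the differences of other genes was tested.

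The messenger RNAs of the ribosomal proteins themselves were near the background as a group, with 4 of 50 below (8.0%, near the 7.65% of all genes), 1 above and a median difference of -0.0021. RPL29 was the exception in size, with 10.26 and 9.99 against 10.76 to 11.12 and a second probe that was lower by 0.75. RPS7 was lower by 0.61. RPL31 was above (14.20 and 14.29 against 13.86 to 14.19). Ribosomal protein genes have many processed copies, so probe signals may include them. Among translation initiation factors, 6 of 32 were below (18.75%, against 7.65% of all genes). EIF4G1, the scaffold that joins the cap-binding complex to the small subunit, was 1.57-fold lower (10.21 and 9.83 against 10.50 to 10.90).

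The promoter windows of the ribosome biogenesis genes are shown because a sequence shared by several of them is known from other work. The letters CACGTG form an E-box that MYC with its partner MAX, and other factors of that family, can bind. They read the same on both strands. RefSeq windows from 250 bases before to 50 after the start (GRCh38.p14) were matched by symbol for 7106 of 8611 genes. The motif was present in 7.27% of all 27305 windows and in 10.3% of those of the tested genes. It was in 93 of 552 windows of genes called below (16.8%) and in 36 of 516 of genes called above (6.98%). Of the ribosome biogenesis genes, 31 of 122 windows held it (25.4%), among them 12 of 29 of the members called below (41.4%). The 4 members below with the largest differences and a site before the start are printed with 60 bases, 5′ to 3′ on the strand of the gene, with the E-box in capitals.
NAT10 (chr11:34105569-34105628, plus strand): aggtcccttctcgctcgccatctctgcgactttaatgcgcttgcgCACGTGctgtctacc
EXOSC5 (chr19:41397416-41397475, minus strand): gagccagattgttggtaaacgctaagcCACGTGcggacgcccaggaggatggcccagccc
UTP14A (chrX:129905914-129905973, plus strand): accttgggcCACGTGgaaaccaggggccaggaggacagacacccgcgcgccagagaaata
UTP4 (chr16:69132589-69132648, plus strand): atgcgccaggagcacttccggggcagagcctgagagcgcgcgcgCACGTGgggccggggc

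The sites begin 15, 89, 241 and 16 bases before the annotated start, in this order. UTP14A and UTP4, factors of the small subunit processome named after their values were seen, were lower by 0.44 and 0.39. A match of letters is not a bound site. MYC itself lay within the range of the others, with 10.89 and 11.33 against 10.84 to 11.46, and of the 8 genes of the MYC network only MXD3 was called. MXD3, a partner of MAX that opposes MYC, measured 8.06 and 8.19 against 7.40 to 7.87 (1.40-fold higher).

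Proteasome genes, the second list that chose the pair, had 14 of 44 members below (31.8%) and 0 above, with a median difference of -0.19 (-0.17 and -0.24 in shDEK14 replicate 3 and shDEK17 replicate 1). The list deviated by -0.11 and -0.22 in the pair, and by -0.028 in the next lowest library, shDEK14 replicate 2. By subgroup the medians were -0.29 in the beta ring of the 20S core, -0.28 in the 19S ATPases and -0.19 in the other 19S subunits. The 3 single genes with the lowest differences belonged to the 19S cap. PSMC3, an ATPase of the base of the cap, measured 9.43 and 9.60 against 10.04 to 10.53 (median 10.22) and was 1.67-fold lower. PSMC4, another of these ATPases, measured 10.28 and 9.97 against 10.53 to 10.82, and ADRM1, a ubiquitin receptor, 10.33 and 9.96 against 10.48 to 10.99. The other probes of PSMC4 (-0.45 and -0.39) and ADRM1 (-0.20) were also lower, but with overlapping groups. The scaffold subunits PSMD2 (-0.43) and PSMD1 (-0.40) were also below.

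The 20S core was uneven. PSMB4 (-0.43) and PSMB6 (-0.29) of the beta ring and PSMA5 (-0.23) of the alpha ring were below, and the other 10 core genes overlapped with the other libraries. PSMA1 had a difference of 0.05. None of the 3 immunoproteasome genes was separated: PSMB8, PSMB9 and PSMB10 had differences of -0.11, -0.05 and -0.10. As a mean they were highest in shEMPTY replicate 2 (deviation 0.58), and without that library PSMB8 stood at -0.011 and PSMB9 at 0.14. Of the regulators, PSME3 (the nuclear activator) was lower by 0.57 and the assembly chaperones PSMG4, PSMG3 and PSMG1 by 0.48, 0.30 and 0.22. The second probe of PSMG1 was lower by only 0.07, with overlap.

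Proteasome promoters are known to carry antioxidant response elements, bound by NFE2L1 and related factors, and the core letters TGACNNNGC were searched on both strands. They were in 13.5% of all windows, 15.6% of those of tested genes, 15 of 39 proteasome windows (38.5%) and 5 of the 11 windows of members called below. The members below with a site before the start, PSMD12 among them (-0.26, named after its values were seen), are printed with the core in capitals.
ADRM1 (chr20:62302734-62302793, plus strand): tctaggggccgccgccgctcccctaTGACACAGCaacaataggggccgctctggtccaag
PSMD12 (chr17:67366708-67366767, minus strand): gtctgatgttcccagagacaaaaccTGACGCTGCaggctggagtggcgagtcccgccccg
PSMG1 (chr21:39183600-39183659, minus strand): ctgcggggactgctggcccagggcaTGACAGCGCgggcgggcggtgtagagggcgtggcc

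Sites of different motifs among those searched shared bases in 63 of 7106 windows. Whether any of these sites was bound in these cells was not measured.

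Glycolysis, the third list, held less evenly. Of 22 genes, 7 were below (31.8%) and 3 above, with medians of -0.10 in shDEK14 replicate 3 and -0.26 in shDEK17 replicate 1. As a list mean, shDEK14 replicate 3 deviated by only -0.014, and shEMPTY replicate 2 was lower (-0.062). As a whole list, glycolysis thus lay under all 7 others in shDEK17 replicate 1 alone (-0.10). The 13 enzymes of the pathway by themselves deviated by -0.068 and -0.17, both under the next library (-0.034). ENO1 (enolase) measured 13.02 and 13.12 against 13.29 to 13.68, and PGAM1 (phosphoglycerate mutase) 11.25 and 11.12 against 11.39 to 11.61. The second probe of PGAM1 was lower by 0.31, with overlap. The others below were small in size, such as GAPDH (-0.17) and PKM (-0.12), named after their values were seen.

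The 3 glycolysis genes above were ALDOC, PDK3 and MPC2. ALDOC, an aldolase isoform, measured 9.21 and 9.26 against 8.24 to 8.91 (1.54-fold higher). PDK3, a kinase that inhibits pyruvate dehydrogenase, measured 10.24 and 10.50 against 9.15 to 10.02, but its other probe differed by only 0.05. MPC2, a subunit of the mitochondrial pyruvate carrier, was higher by 0.26. SLC2A1, the main glucose transporter of many cell lines, had a mean difference of -0.34 with overlapping groups (8.35 and 8.52 against 8.51 to 8.90).

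The remaining lists are not those named in the choice of the pair, but they were measured on the same arrays. The cytosolic heat shock genes include the marker HSPA1B, so that list is not separate from the choice. Of the remaining lists, 33 had at least 8 genes. The list mean of both arrays lay under all 7 others in 11, the heat shock list among them, and over all 7 in 1. Mitochondrial biogenesis was among the former. Of mitochondrial ribosome genes 8 of 32 were below (25%, against 7.65% of all genes) and 0 above. Of mitochondrial import and chaperone genes it was 6 of 30 (20%) and 0. Of the mitochondrial ribosome, the large subunit genes MRPL20 (9.69 and 9.66 against 9.89 to 10.44) and MRPL24 (10.20 and 10.39 against 10.60 to 10.99) were lower by 0.50 and 0.47. The respiratory chain was closer to the background, with 7 of 56 (12.5%).

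PHB1 (prohibitin), a scaffold of the inner mitochondrial membrane, had the second lowest difference of the genes called below. It measured 9.33 and 9.25 against 9.91 to 10.51 (median 10.16) and was 1.87-fold lower. TOMM40, the pore of the outer membrane, measured 11.72 and 11.53 against 12.10 to 12.43 (1.54-fold lower), and ATAD3A, an ATPase of the inner membrane, 8.20 and 8.31 against 8.60 to 9.22. TIMM10, an import chaperone, was 9.67 in shDEK17 replicate 1 but 10.43 in shDEK14 replicate 3, near the lowest other value of 10.47. ATP5MC1, a subunit of the ATP synthase rotor, was the lower of both in the first array, with 10.68 in shDEK14 replicate 3 and 11.24 in shDEK17 replicate 1 against 11.41 to 11.70.

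**Figure D3:**
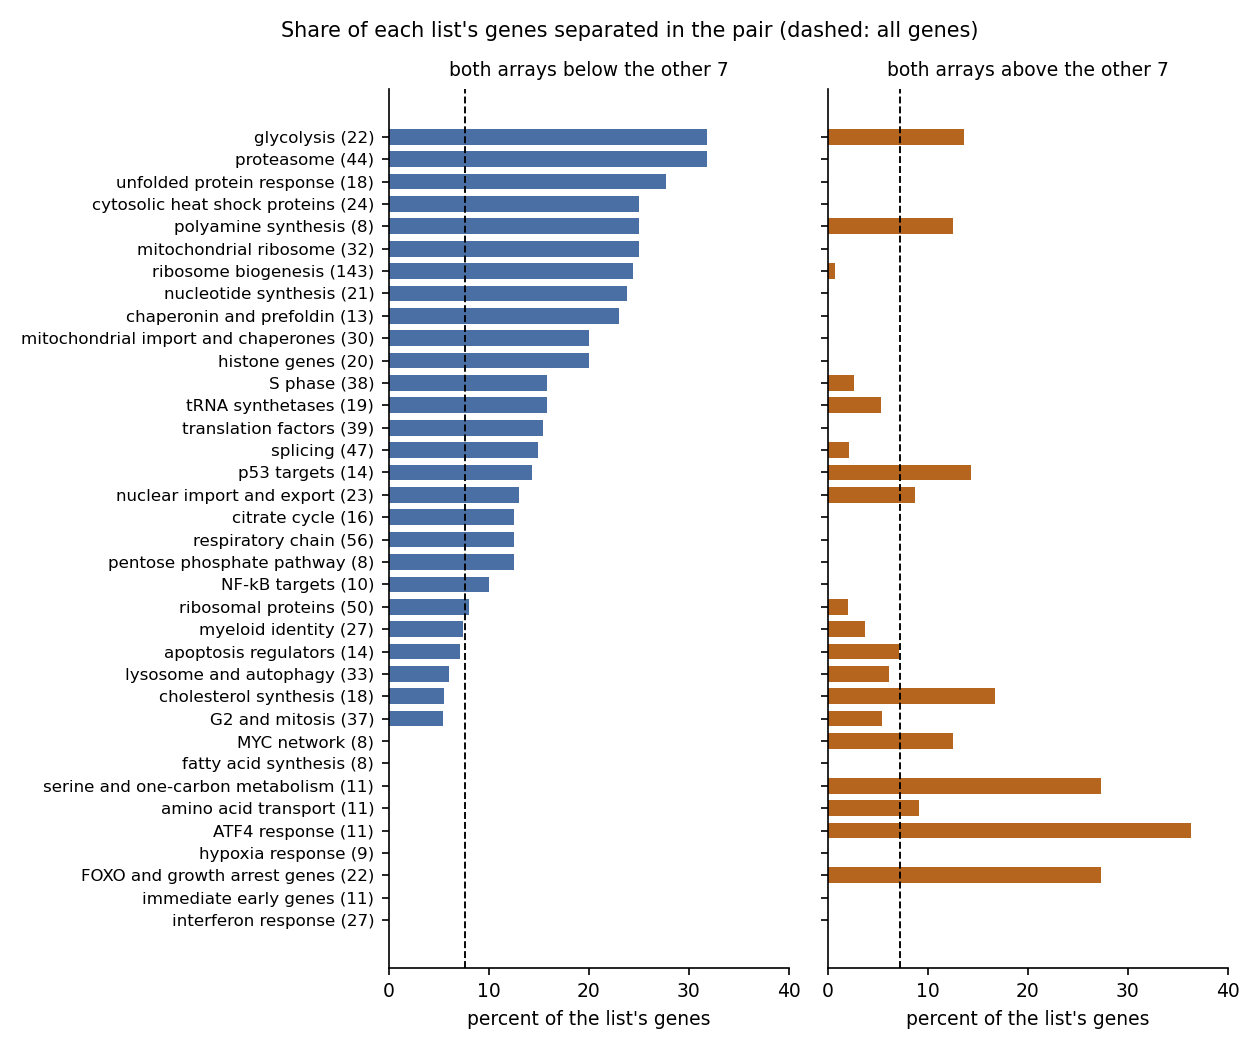
Percent of the genes of each list (number tested in brackets) with both arrays of the pair below (left) or above (right) all 7 other libraries. Dashed lines mark the share over all genes, 7.65% and 7.2%. Proteasome and glycolysis reach 31.8% on the left, and the ATF4 response 36.4% on the right.

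Of 24 cytosolic heat shock genes, 6 were below (25%, against 7.65% of all genes) and 0 above (median -0.22). HSPA8, the constitutive HSP70, measured 12.74 and 12.30 against 12.83 to 13.40 (1.54-fold lower), and FKBP4, a co-chaperone of HSP90, 10.04 and 10.03 against 10.38 to 10.74. Of the cytosolic chaperonin and prefoldin genes, 3 of 13 were below (23.1%), led by CCT3 (-0.41). In the endoplasmic reticulum 5 of 18 unfolded protein response genes were below (27.8%), among them HSPA5, the lumenal HSP70 (8.20 and 8.45 against 8.53 to 9.33), and CALR, a lectin chaperone (-0.42). EDEM1 of the same list had a higher mean in the pair (0.49) with overlap.

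Nucleotide synthesis had 5 of 21 genes below (23.8%, against 7.65% of all genes) and 0 above. NME1, a nucleoside diphosphate kinase, measured 12.87 and 12.77 against 13.17 to 13.44, and UCK2 (uridine-cytidine kinase) and PFAS (a purine synthesis enzyme) were lower by 0.49 and 0.42. Another NME1 probe was also below (-0.46), and the third overlapped (-0.18). Spermidine synthase (SRM) measured 9.52 and 9.19 against 9.58 to 10.12, while SMS (spermine synthase) was higher by 0.33. ODC1 had a difference of -0.50, with 11.43 in shDEK14 replicate 3 inside the range of the others. PRMT1, the main arginine methyltransferase, was 1.58-fold lower (9.63 and 9.49 against 9.94 to 10.36).

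Of cell cycle genes, S phase had 6 of 38 below (15.8%, against 7.65% of all genes) and 1 above, and its list mean was under all 7 others in both arrays. G2 and mitosis had 2 of 37 below (5.41%) and 2 above, near the background. BIRC5 (survivin) was lower by 0.52, and FEN1 (a flap nuclease of replication) by 0.39. The second probe of BIRC5 was lower by 0.16, with overlap. H4C14, a replication-dependent histone gene, was not detected on either array of the pair and was at least 1.34-fold lower, taking the lowest detected signal of each array as its floor. Of other U937 traits, CSF1R, the receptor of macrophage colony-stimulating factor, was lower (7.27 and 7.06 against 7.44 to 8.55) and undetected in shDEK17 replicate 1. CSF2RA, the receptor subunit for GM-CSF, was higher (11.87 and 11.84 against 11.16 to 11.48). In all, 2 of 27 myeloid genes were below and 1 above, near the background.

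Of the ATF4 response list 4 of 11 were above (36.4%, against 7.2% of all genes) and 0 below. ASNS, which makes asparagine, measured 11.11 and 11.25 against 9.93 to 10.85 (median 10.17) and was 1.90-fold higher, with its second probe higher by 0.63. ATF4 itself, named after its values were seen, measured 12.95 and 13.13 against 12.54 to 12.74 (1.29-fold higher). VLDLR, a lipoprotein receptor, measured 7.99 and 7.97 against 6.98 to 7.51, and CTH (cystathionine gamma-lyase) was higher by 0.49. The highest of the 7 others for ASNS and CTH was shEMPTY replicate 2, and as a list mean that library (0.26) lay between shDEK14 replicate 3 (0.33) and shDEK17 replicate 1 (0.093).

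Of serine and one-carbon metabolism, 3 of 11 genes were above (27.3%, against 7.2% of all genes) and 0 below. These were the first enzyme of serine synthesis, PHGDH (13.04 and 13.10 against 12.41 to 12.80), the second, PSAT1 (0.29), and the mitochondrial folate enzyme MTHFD2 (0.40). The median of the whole list was -0.020. SLC38A2, a sodium-coupled transporter of neutral amino acids, measured 11.80 in each array of the pair against 10.56 to 11.68 (1.53-fold higher). It was 1 of 11 transporter genes above (9.09%, near the 7.2% of all genes), and the median of that list was -0.045. MARS1 (methionyl-tRNA synthetase) was higher by 0.31, while VARS1, HARS1 and FARSA of the same family were lower by 0.33, 0.30 and 0.30. The letters TGATGNAA of the C/EBP-ATF element, searched on both strands, were in 1.76% of windows of tested genes. They were in 1 of 11 ATF4 response windows, in none of the 4 of members called above, and in 1 of 9 serine and one-carbon windows. With a motif this rare, so few windows say nothing about these genes.

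The list of FOXO targets and growth arrest genes was the only 1 of the 33 whose mean lay over all 7 others in both arrays (0.22 and 0.14, against 0.037 in shEMPTY replicate 3). Of its 22 genes, 20 had a higher mean in the pair, 6 were above (27.3%) and 0 below. IRS2, an adaptor of the insulin receptor, measured 8.43 and 8.22 against 7.45 to 8.17, and ARRDC3, an arrestin domain protein, 7.91 and 7.73 against 7.09 to 7.67. The other 4 above, named after their values were seen, were YPEL5 (0.44), SOD2 (0.38), RBL2 (0.33), a pocket protein of quiescent cells, and SESN1 (0.28), an inhibitor of mTORC1 signalling. BTG1, an antiproliferative gene, had a difference of 0.56 and overlapped, at 10.07, with shEMPTY replicate 3 (10.08).

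Sterol synthesis was higher mainly in 1 of both arrays. SQLE (squalene epoxidase) measured 10.99 and 10.67 against 9.56 to 10.51, and HSD17B7 11.58 and 11.75 against 10.96 to 11.50. The second probe of SQLE was higher by 0.42, with overlap. HMGCS1, the synthase at the head of the pathway, had a difference of 0.89 but overlapped (11.44 and 10.92 against 9.58 to 11.24). As a list mean, cholesterol synthesis stood at 0.23 in shDEK14 replicate 3 and at 0.084 in shDEK17 replicate 1, where shEMPTY replicate 3 was higher (0.093). Of 18 genes, 3 were above (16.7%, against 7.2% of all genes) and 1 below (5.56%, against 7.65%).

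The largest difference of the genes called above was in TSPAN7, a tetraspanin, with 10.14 and 9.32 against 7.90 to 9.01 (2.46-fold higher). SORL1, a sorting receptor, measured 8.66 and 9.17 against 7.84 to 8.13 and stood out by the narrow range of the others (SD 0.12). The second probes of TSPAN7 and SORL1 were higher by 0.87 and 0.52, but with overlapping groups. PCMTD1 was 2.03-fold higher (9.04 and 8.90 against 7.56 to 8.56). OGA, the enzyme that removes O-GlcNAc from proteins, was 1.85-fold higher (10.71 and 10.94 against 9.60 to 10.49), and STRIP2 was 1.86-fold higher. For OGA, PCMTD1, GPBP1 and CEP152 the highest of the 7 others was shEMPTY replicate 3.

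**Figure D4:**
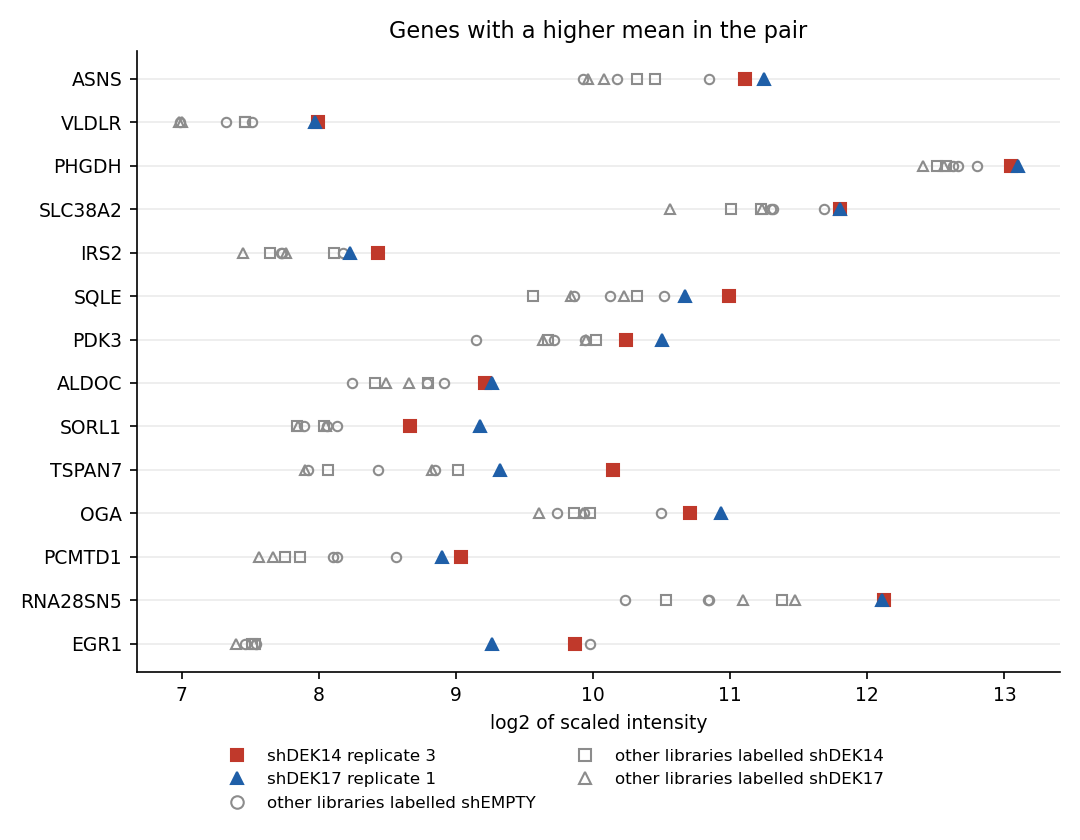
Log2 of scaled intensity (horizontal axis) of 14 genes with a higher mean in the pair, with 1 point per library: filled symbols for the pair, open symbols for the other 7 by label. For ASNS the pair lies at 11.11 and 11.25 over 10.85, whereas for EGR1 shEMPTY replicate 3 (9.98) lies over both (9.86 and 9.26).

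EGR1, an immediate early transcription factor, had a larger difference (1.71) than any of these but was not separated. It measured 9.86 and 9.26 in the pair, 9.98 in shEMPTY replicate 3 and 7.39 to 7.54 in the remaining 6 libraries. None of the 11 genes of the immediate early list was called. Among regulators of apoptosis BCL2 was above by its brightest probe (10.74 in each array against 9.95 to 10.73) and BCL2L1 below (9.30 and 9.09 against 9.53 to 9.77), both inhibitors of cell death. Another of the 3 BCL2 probes was higher by 0.60, with shEMPTY replicate 3 (10.4182) just over shDEK14 replicate 3 (10.4165). The third, near the floor, was lower by 0.11. Of 14 p53 targets, 2 were below and 2 above (14.3% each, against 7.65% and 7.2% of all genes). BAX, a promoter of cell death, was below at 8.87 and 8.74 against 9.04 to 9.25. Its second probe, near the floor, differed by only -0.0038. Interferon response genes, of which 0 of 27 were called, were high in shEMPTY replicate 2 (list mean 2.16) and not in the pair (-0.15 and -0.22).

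Each array was also set against its own label and experiment number, and the 4 lists given here kept their sign in each array. Ribosome biogenesis, proteasome and glycolysis genes chose the pair, so their low values here follow in part from that choice. In both arrays the list means of ribosome biogenesis, proteasome and FOXO genes already lay beyond every library outside the pair. Against any of those libraries the sign of these means was therefore fixed in advance. The FOXO list is given here because of that position. Kept signs of the medians below are thus no separate support, and the values are a description only. Against the other 2 libraries of its own label, the median difference of ribosome biogenesis genes was -0.12 in shDEK14 replicate 3 and -0.22 in shDEK17 replicate 1. Against the other 2 of the same experiment number, by which the array columns are named, it was -0.15 and -0.21. Proteasome genes gave -0.14 and -0.23 within labels, and -0.19 and -0.22 within experiment numbers. Glycolysis genes gave -0.13 and -0.24, and -0.11 and -0.27. FOXO and growth arrest genes gave 0.23 and 0.25, and 0.27 and 0.22, while all genes gave medians between -0.0093 and 0.035.

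Genes below and above differed in span and level. The span from start to end of the RefSeq gene had a median of 13.1 kb for genes below, 50.4 kb for genes above and 27.7 kb for all. Over 5 bins of genes from the shortest to the longest, the percent below went from 13.9 to 3.54 and the percent above from 4.24 to 12.2. The percent below also went from 3.02 in the dimmest to 12.7 in the brightest of 5 bins. Ribosome biogenesis genes had a median span of 19.1 kb and proteasome genes 14.5 kb, both under that of all genes. Mitochondrial ribosome genes, 25% of them below, had 8.64 kb, and ribosomal protein genes, 8% of them below, 5.34 kb. Their median log2 levels were 10.3 and 13.7, against 8.49 for all genes. In the shortest 2 bins, members of the 3 lists that chose the pair were below in 33.3% and all other genes in 11.3%. In the longest 3 bins it was 19.8% and 4.46%. Because these lists chose the pair, their larger shares were partly fixed in advance and cannot show what span contributed. The part of span, level and RNA quality in the differences was not tested.

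**Figure D5:**
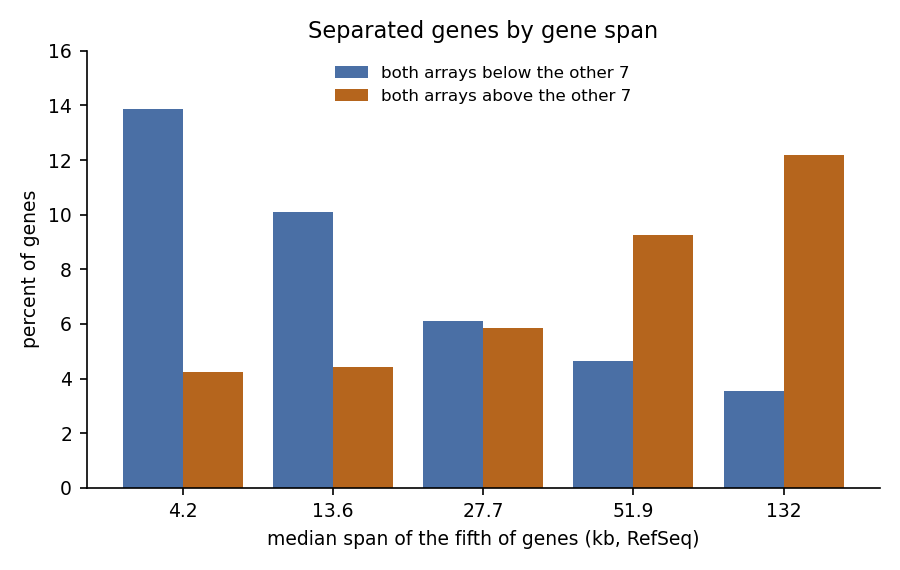
Percent of genes (vertical axis) with both arrays of the pair below or above all 7 other libraries, in 5 bins of equal gene number ordered by RefSeq gene span (median of each bin in kb, horizontal axis). The percent below goes from 13.9 in the shortest bin to 3.54 in the longest, and the percent above from 4.24 to 12.2.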

How the data were processed

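Total RNA of 9 libraries was measured on Illumina HumanHT-12 v4 arrays. For 47323 probes on each array the authors deposited a mean bead intensity that was not normalized. A detection p-value was deposited beside each, with a smallest step of 1 in 770. A second deposited table held the same intensity times 1 factor per array, giving each a mean of 406.2. The scanning software was not given in the sources used. Arrays had mean intensities of 362.2 to 457.2 before scaling, and their number limits the precision.

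The scaled intensity was log2-transformed. A probe needed a detection p below 0.01 on 3 or more arrays (14230 probes, of which 3032 had no single symbol and were not named), and the brightest probe stood for a gene (8611 genes, 2156 with several). The platform annotation gave 30113 probes 1 symbol, 8 several and 17202 none. Of these, 30074 were matched to RefSeq.

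The pair was compared with the other 7 libraries by mean difference and by whether the groups overlapped, without a test. The pair, the 41 gene lists (946 of 1158 entries tested) and the rule for named genes were chosen with earlier results of these data known. The rule took DEK and both markers, 15 genes per direction, 4 per subgroup of the 3 choosing lists, 3 of each other list, all of the MYC network and members against their list. Of 198 named genes, 77 had several probes, and for 12 of these at least 1 probe went the other way. Alternatives used limma 3.58.1 in R 4.3.3 (neqc with offset 16, normexp with offset 50, median scaling, cyclic loess), other filters and probes, and libraries left out. The calculation was tested on simulated data.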

Additional observations from a re-analysis of the deposited data

Results flagged for a closer look

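The value of 1 library far from the rest of the 7 was looked for in 72 lists and genes, and 4 were found. Chance gives about 1 in 20, and the share found was near that, so a single flag may be due to chance. The ATF4 response list was high in shEMPTY replicate 2 (mean deviation 0.258, next library 0.010), the same library that was nearest to the pair for ASNS and CTH. The interferon response list was far higher there (2.16, next -0.18). NOP56 was lowest of the 7 in shEMPTY replicate 3 (11.92, next 12.19), and OGA highest in that library (10.49, next 9.98). Both values lay on the side of the pair.

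Among probes that did not pass the filter, 21 of 47323 were detected on both arrays of the pair and on none of the others, 16 of them named. They include probes of RUNX2, MSRB3, ZNF37A and ZBTB20. They lay near the floor: the lowest detected signals of the pair were 7.17 and 7.28, and RUNX2 measured 7.28 and 7.63. In the other direction 40 of 47323 probes, 34 named, were detected on all 7 others and on neither array of the pair, with probes of MPDU1, SIGLEC5 and POLR3G among them. These 40 passed the filter, and H4C14, given with a least fold above, is among them. No other size is given, since one side of each comparison was not above background. The choice of these genes followed their values.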

How the results depend on the processing

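No paired analysis was possible because the comparison carries no test. Values of each array against its own experiment number are given without one. For values other than counts, each list or named gene was compared once per setting. In 734 such comparisons of other lists' medians and 4214 of named genes the value moved by less than 1 SD over the 7 libraries. In 55 and 127 it moved more. Asking each array to pass 1.5-fold cannot move a median or difference, and 36 and 198 of the unmoved comparisons came from that setting. Of list medians larger than 1 SD of the list mean over the 7 libraries, 3 changed sign. That of polyamine synthesis turned to 0.16 without shDEK14 replicate 3, of apoptosis regulators to -0.019 likewise (0.11 without shDEK17 replicate 1), and of lysosome and autophagy genes to 0.044 without shDEK17 replicate 1 (-0.072 without shDEK14 replicate 2). Medians smaller than 1 SD also changed sign with 1 library left out: interferon response (0.11 without shEMPTY replicate 2), immediate early genes (-0.016 without shDEK14 replicate 3), pentose phosphate pathway (0.030 without shDEK17 replicate 1), serine and one-carbon metabolism (up to 0.021) and ribosomal proteins (up to 0.011).

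Fewer libraries leave less to separate from. Genes below numbered 1043 and above 1443 (176 by 1.5-fold) against the 4 other hairpin-labelled libraries only, 1341 and 1932 (183) within labels, and 1367 and 1300 within experiment numbers. Without all 3 libraries numbered 2, chosen after seeing the data, they were 1065 and 943. With 1 library left out, genes below ranged from 693 to 1659, above from 655 to 1525, below by 1.5-fold from 31 to 120 and above by 1.5-fold from 69 to 176. The median of ribosome biogenesis ranged from -0.20 to -0.15, of proteasome from -0.24 to -0.17 and of glycolysis from -0.26 to -0.10.

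Background correction and quantile normalization, changed together, gave larger sizes: with neqc 192 genes were below and 204 above by 1.5-fold (72 below with normexp), and ribosome biogenesis stood at -0.25. Of genes called below and above, 89.5% and 81.0% were shared with neqc, and 83.3% and 76.5% with scaling to an equal median, the lowest shares of the 4 sets of values tried. Asking each array to pass 1.5-fold left 11 below and 42 above. Without a filter, 958 were above.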
